A study of Mus musculus with 6 samples.

Results

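Genes for chromatin modifiers and remodellers were examined in a PRO-seq comparison of mouse bone marrow progenitors that carried wild-type or mutant MLLT3. The members were chosen by gene symbol alone, from name families that include the Kdm, Kmt, Hdac, Smarc, Chd, Brd, Kat, Dnmt, Tet, Cbx, Phf, Hmgb, Hmgn, Ncoa, Prmt and Baz genes. The rule found 36 of the 2744 genes in the authors' deposited table. PRO-seq maps RNA polymerase engaged on its template: isolated nuclei run on with biotinylated nucleotides, here for 3 min, and the tagged transcripts are pulled down for sequencing. The cells were cKIT+ bone marrow progenitors of female C57/BL6 mice of the genotype Mllt3 flox/flox with Rosa26Cre+, transduced with MLLT3 WT (the WT group, 3 libraries) or with MLLT3 K63E K67E (the DM group, 3 libraries). Both groups were sorted and kept for 8 days in methylcellulose with cytokines and 200 nM 4-hydroxytamoxifen, which was added to delete endogenous Mllt3 in both. The WT group therefore also relies on a transduced gene and is not an unmanipulated progenitor. The labels do not say whether replicates came from separate mice or cultures, so p-values measure the spread between these libraries.

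MLLT3, also called AF9, is a YEATS domain protein that reads acylated histones and joins the DOT1L and super elongation complexes, which act during transcription elongation. Chromatin modifiers write, read or erase chemical marks on histones and DNA, and remodellers use ATP to slide or evict nucleosomes. In blood progenitors Polycomb proteins, DNA methyltransferases and histone acetyltransferases are known for holding or releasing the expression programs of stem and myeloid cells.

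Every transcript in the deposited table has an adjusted p under 0.05 in the authors' own comparison of its gene body, so the table is a selection, and body differences given here describe genes chosen by that same contrast. The members were 14.9% (36 of 241) of the RefSeq protein-coding genes that match the name rule, where 11.97% (2622 of 21900) of all RefSeq protein-coding genes were in the table. Dot1l and Cbx8, both known to bind MLLT3, were not among the genes analysed here. Reads were counted by the authors in a head window of 330 bp, which begins 30 bp upstream of the 5′ end, and in the body, which is the rest of the transcript with its introns. Body and head values are given as reads per 1000000 of the library total (RPM), always in the order of replicates 1, 2 and 3, and fold changes are log2 of DM over WT from edgeR with a standard error (SE).

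Library totals ran from 15112853 to 22981603 reads, and all 6 libraries carry the same batch label. WT replicate 2 stood apart in its heads, with 30.7 head reads per 100 body reads over the members, against 17.6 and 19.6 in the other WT libraries and 15.7 to 17.2 in DM. Markers of progenitors and of more mature cells moved with the groups. Kit, the surface marker in the cell type label, averaged 1266 body RPM over the 3 WT libraries with an SD of 259, and 657 with an SD of 8.53 over the 3 DM libraries. Of 6 listed progenitor markers 5 were in the table, 4 lower and 1 higher in DM, and their summed body level ran from 2512 to 3241 RPM in WT and from 1529 to 1587 in DM. Of 10 listed granulocyte and monocyte markers 6 were in the table, 5 higher and 1 lower in DM, with sums of 218 to 268 RPM in WT and 550 to 641 in DM. All 3 mast and basophil markers in the table were lower in DM (3 of 6 listed, 1188 to 2204 RPM in WT and 943 to 1018 in DM), as were 2 of 6 erythroid markers (28.5 to 40.4 and 16.6 to 20.6 RPM) and 1 of 4 megakaryocyte markers (132 to 166 and 76.9 to 89.8 RPM). None of the 4 B cell or 4 T cell markers was in the table. Whether the cell mixture had a part in the results on chromatin genes was not tested, and fewer cells of a type cannot be told apart from less transcription per cell. Mllt3 itself had 1853, 1167 and 2181 raw body reads in WT against 1335, 1273 and 1176 in DM. Per library total it averaged 84.4 RPM in WT with an SD of 9.62, and 60.1 in DM with an SD of 2.50. In RPM all DM libraries lay below all WT libraries. Since both groups were treated to delete the endogenous gene, these reads check neither label.

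Chromatin genes were mostly lower in DM, in a table where most genes were higher. In the authors' deposited table, 26 members were lower and 10 higher, so 72.2% of the members were lower against 43.0% of all 2744 genes. In edgeR's quasi-likelihood test all 36 members passed an adjusted p of 0.05, 26 lower and 10 higher, where 99.5% of the 2721 genes tested passed, 42.1% lower and 57.4% higher. The share called was thus at the background that the selection of the table sets, and only the direction is described. Body p-values of single genes, here and below, were adjusted over genes already chosen by this contrast. They describe these libraries and do not test for a change. The members' median log2 fold change was -0.38 and that of all genes tested was 0.40. All 3 DM libraries lay below all 3 WT libraries in 25 members and above them in 10, where 38.2% and 56.9% of all genes lay wholly below and above. With TMM, which scales the libraries on the table's own genes, the median of all genes moved from 0.40 to 0.18 and that of the members to -0.59, and 26 members passed as lower and 5 as higher (42.5% and 41.9% of all genes).

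**Figure D1:**
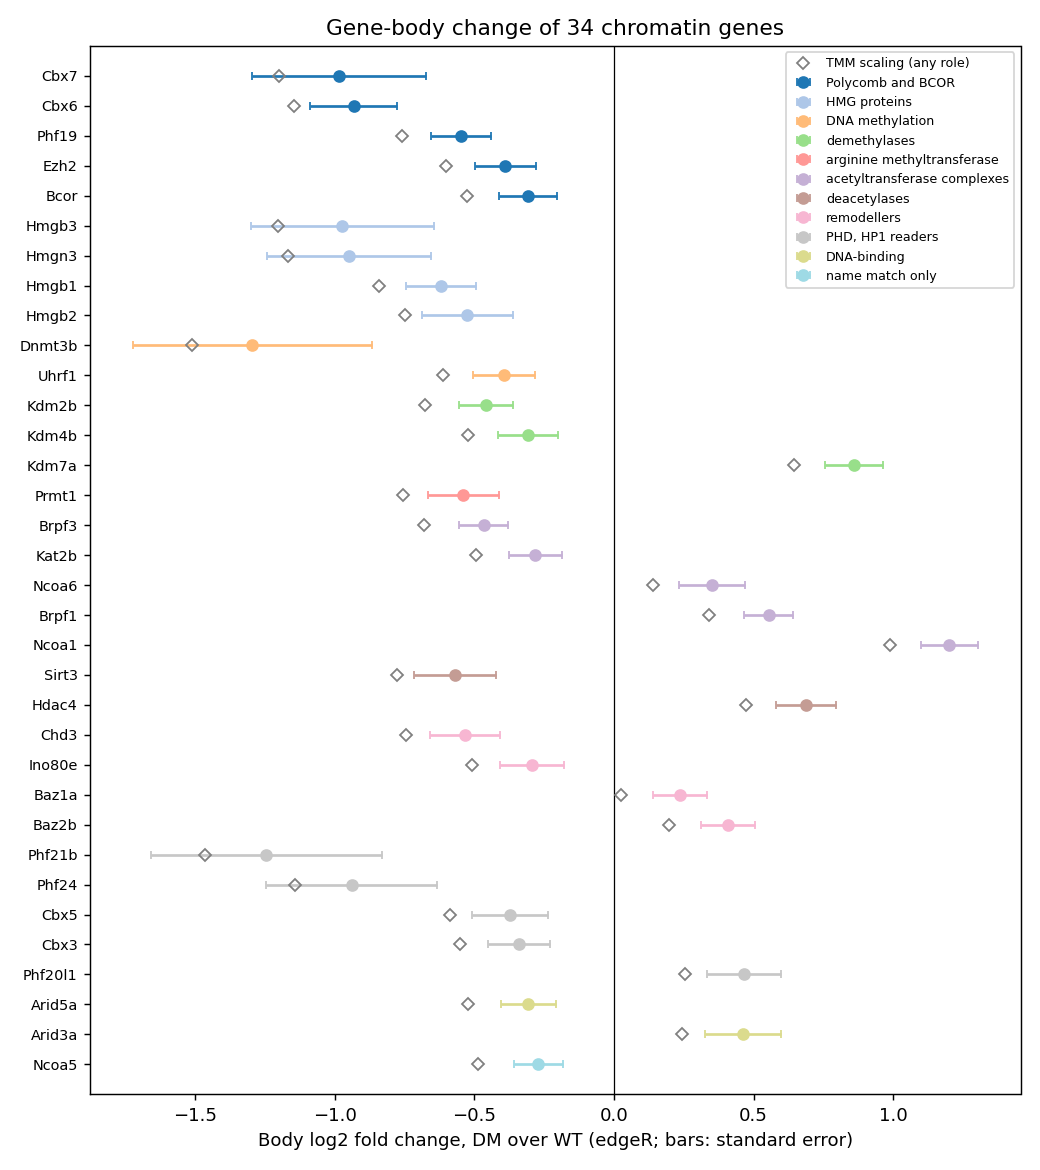
Body log2 fold change of 34 chromatin genes (horizontal axis, DM over WT; points edgeR estimates, bars 1 SE), grouped by role, with open diamonds for the estimate under TMM scaling. The Polycomb, HMG and DNA methylation genes all lie left of 0, and Ncoa1 at 1.20 and Kdm7a at 0.86 lie farthest right.

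Ezh2, Phf19, Cbx6, Cbx7 and Bcor, the 5 members grouped as Polycomb genes, all fell, with a median of -0.55 (Kdm2b is given with the demethylases). Coordinates are those of the deposited transcripts on mm10, the mouse build named in the submitters' processing notes. Ezh2 (chr6:47530139-47595030), the catalytic subunit of the Polycomb complex that methylates histones, had body levels of 58.6, 48.2 and 53.5 RPM in WT against 42.8, 42.1 and 37.6 in DM. Its 3 DM values lay below all WT values, and its fold change was -0.39 ± 0.11 (SE). Phf19 (chr2:34893757-34913976), an accessory subunit that helps to place the EZH2 complex on chromatin, had 36, 34.8 and 42.3 RPM in WT against 25.3, 26.1 and 26 in DM. The DM libraries were within 1 RPM of each other and below every WT library, with a fold change of -0.55 ± 0.11. The largest falls were those of the chromodomain subunits, which read the mark EZH2 writes. Cbx6 (chr15:79823896-79834237) had 38.9, 25.7 and 30.03 RPM in WT against 16, 16.7 and 17 in DM, a 1.90-fold lower mean. Cbx7 (chr15:79915807-79932652) had 30.2, 14.8 and 12.3 RPM in WT against 8.62, 10.8 and 9.66 in DM, so that WT replicate 1 held 52.6% of the WT signal, and the groups did not overlap. Bcor (chrX:12036740-12080553), the corepressor that MLLT3 is known to bind and the scaffold of a variant Polycomb complex, had 113, 138 and 116 RPM in WT against 101, 98.8 and 96.9 in DM and a smaller change of -0.31 ± 0.10.

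The heads of the Polycomb group, which are other reads of the same libraries, pointed down in 5 of 5, with a median of -0.73. Among all genes lower in the body 96.6% had a negative head change, with a median of -0.65, so this direction is near that background. None of the 5 Polycomb heads passed edgeR's adjusted p of 0.05, where 20.3% of all heads tested passed. In that test 4 of the 5 had an unadjusted p under 0.05, as did 960 of all 2579 heads. The Ezh2 head had 31.8, 62 and 33.7 RPM in WT against 23.5, 24.8 and 25.5 in DM. All DM values were lower than all WT values and WT replicate 2 was the highest, with an edgeR fold change of -0.79 ± 0.28 and an adjusted p of 0.0568; without WT replicate 2 these were -0.41 and 0.0293. For Cbx7 the head change was -0.80 ± 0.29 (edgeR adjusted p 0.0618), for Phf19 -0.72 ± 0.27 (0.0711) and for Cbx6 -0.73 ± 0.32 (0.113), and in each the 3 DM heads lay below the 3 WT heads, as in 23.3% of all genes. Without WT replicate 2 the head value of Cbx6 was -0.31 and that of Bcor -0.25, against -0.59 for Bcor with all libraries. In fits that left out 1 library, edgeR's adjusted p for the body rose to 0.0504 for Cbx7 without DM replicate 1 and to 0.0511 for Ezh2 without DM replicate 3. Without WT replicate 1 the fold change of Cbx7 was -0.48. For Bcor the adjusted p in edgeR rose to 0.0597, 0.0579 and 0.0771 without DM replicates 1, 2 and 3. Cbx6 overlaps Npcd and Cbx7 overlaps Apobec3 in the genome, and whether reads were assigned by strand is not given in the sources used here.

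The 4 high mobility group genes fell as well, with a median of -0.78. Their proteins are abundant architectural factors: HMGB proteins bend DNA, and HMGN proteins bind nucleosomes. Hmgb2 (chr8:57511907-57515999) was the member with the highest body level per length, a mean of 16.7 RPKM over the 6 libraries, and Hmgb1 (chr5:149046702-149053040) followed with 9.47. Hmgb1 had body levels of 66.6, 81 and 60.4 RPM in WT against 46.7, 46.1 and 42.4 in DM. Its groups were separate, its body change was -0.62 ± 0.12, and its head was 1 of the 2 member heads that passed the test. That head had 15.3, 20.2 and 13.6 RPM in WT against 8.89, 10.7 and 9.11 in DM, and edgeR gave -0.77 ± 0.26 with an adjusted p of 0.0487. The body of Hmgb2 had 84.5, 84.2 and 55.2 RPM in WT against 54.8, 49.1 and 51.6 in DM. WT replicate 3 lay just above the highest DM library, the other 2 WT libraries were near 84 RPM, and the change was -0.53 ± 0.16; without DM replicate 2 edgeR's adjusted p was 0.0505. Hmgb3 (chrX:71555918-71560676) had 9.22, 19.5 and 8.22 RPM in WT against 5.73, 7.22 and 5.76 in DM, with 52.8% of the WT signal in WT replicate 2, and a change of -0.97 ± 0.33. Hmgn3 (chr9:83109948-83146605) had 5.27, 4.17 and 3.63 RPM in WT against 2.63, 2.18 and 1.95 in DM, the lowest levels of the group, and a change of -0.95 ± 0.30. Without WT replicate 2 edgeR's adjusted p was 0.0631 for Hmgb3, where the fold change was -0.48; without DM replicates 1 and 3 it was 0.0583 and 0.0572. For Hmgn3 edgeR's adjusted p was 0.0519 without DM replicate 2 and 0.0706 without DM replicate 3. RefSeq names 9 pseudogenes of Hmgb1 and 1 of Hmgb3, and how reads that map to several places were counted is not given in the sources used here, so these levels are uncertain.

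The stretch of 250 bases upstream of the RefSeq start is shown for the 6 members with at least 2 CCAAT boxes there, of which Hdac4 rose and the others fell, and for Ncoa1, the member that rose most. RefSeq (GRCm38.p6) gave a promoter that starts within 100 bp of the deposited 5′ end for 23 members. CCAAT, the letters bound by the factor NF-Y, was searched on both strands and reads ATTGG on the other strand. Capitals mark it, GGGCGG (the GC box, CCGCCC on the other strand) and CACGTG (an E-box), and a base may belong to more than one match. The windows are chr5:149053058-149053307 (minus strand), chr8:57511593-57511842 (plus), chrX:71555667-71555916 (plus), chr6:47595031-47595280 (minus), chr7:44986421-44986670 (minus), chr1:92180342-92180591 (minus) and chr12:4477183-4477432 (minus), each printed 5′ to 3′ on the gene's strand and ending at the base before the start.
Hmgb1: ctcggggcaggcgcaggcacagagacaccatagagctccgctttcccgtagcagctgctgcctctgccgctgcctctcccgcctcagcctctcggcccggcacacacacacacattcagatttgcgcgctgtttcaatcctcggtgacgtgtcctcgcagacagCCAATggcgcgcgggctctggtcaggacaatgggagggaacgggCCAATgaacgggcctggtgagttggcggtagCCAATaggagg
Hmgb2: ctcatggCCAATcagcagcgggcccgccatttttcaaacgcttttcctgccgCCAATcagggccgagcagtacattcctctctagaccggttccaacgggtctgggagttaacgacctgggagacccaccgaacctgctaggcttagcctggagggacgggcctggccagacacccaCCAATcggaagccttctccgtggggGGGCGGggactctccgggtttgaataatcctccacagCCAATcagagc
Hmgb3: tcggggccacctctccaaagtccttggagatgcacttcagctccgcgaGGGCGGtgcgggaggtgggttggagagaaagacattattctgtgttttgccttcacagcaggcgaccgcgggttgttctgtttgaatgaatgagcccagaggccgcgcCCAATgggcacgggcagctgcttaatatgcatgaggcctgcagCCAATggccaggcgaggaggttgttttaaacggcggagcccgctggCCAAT
Ezh2: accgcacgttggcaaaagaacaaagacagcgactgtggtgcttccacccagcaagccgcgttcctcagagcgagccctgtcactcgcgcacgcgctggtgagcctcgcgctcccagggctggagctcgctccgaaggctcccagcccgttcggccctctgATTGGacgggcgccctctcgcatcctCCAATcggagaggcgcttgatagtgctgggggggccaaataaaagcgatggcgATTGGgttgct
Prmt1: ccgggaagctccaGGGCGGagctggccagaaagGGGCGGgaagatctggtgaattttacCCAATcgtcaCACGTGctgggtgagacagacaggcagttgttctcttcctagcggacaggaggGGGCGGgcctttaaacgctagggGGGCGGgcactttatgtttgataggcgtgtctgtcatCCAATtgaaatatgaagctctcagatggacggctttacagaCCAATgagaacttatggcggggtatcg
Hdac4: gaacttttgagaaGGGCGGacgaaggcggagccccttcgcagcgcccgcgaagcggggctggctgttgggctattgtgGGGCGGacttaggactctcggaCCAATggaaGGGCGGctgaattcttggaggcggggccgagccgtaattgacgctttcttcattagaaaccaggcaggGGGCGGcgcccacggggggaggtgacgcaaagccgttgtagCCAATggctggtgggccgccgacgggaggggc
Ncoa1: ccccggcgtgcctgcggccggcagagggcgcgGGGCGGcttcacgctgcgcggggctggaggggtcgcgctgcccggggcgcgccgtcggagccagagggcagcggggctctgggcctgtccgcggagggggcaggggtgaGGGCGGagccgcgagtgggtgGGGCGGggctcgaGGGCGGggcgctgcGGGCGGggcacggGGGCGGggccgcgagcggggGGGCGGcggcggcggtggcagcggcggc

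Hmgb1, Hmgb3, Ezh2 and Prmt1 each held 3 CCAAT boxes in these 250 bases, Hmgb2 held 4 and Hdac4 held 2. The box nearest the start began 11 bases upstream of it in Hmgb1, Hmgb2 and Ezh2, 5 bases upstream in Hmgb3 and 27 in Prmt1. At least 3 boxes were found in 5 of 23 members (21.7%), in 4.06% of the 1723 table genes with a promoter placed the same way, and in 2.79% of all 32851 promoters. At least 2 were found in 6 of 23 members (26.1%), 13.3% of the table genes and 10.1% of all promoters. Only the share with at least 1 box was planned, and the cuts at 2 and 3 boxes were added to it. Hmgb1, Hmgb2 and Hmgb3 are related genes, so they are not independent cases. Of the members with at least 2, 5 were among the 19 lower members with a placed promoter and 1 was among the 4 higher ones. At least 1 CCAAT in the window of 300 bases, which includes 50 bases past the start, was found in 52.2% of the members (11 of the 19 lower and 1 of the 4 higher), 36.6% of the table genes and 37.4% of all promoters. Ncoa1 held no CCAAT and 7 GC boxes, and a GC box occurred in 73.9% of members, 72.5% of table genes and 35.7% of all promoters. TATAAA occurred in none of the 23 members, in 6.33% of table genes and in 13.6% of all promoters, and the median number of CpG was 29, 22 and 7. The other letters searched on both strands were CACGTG (17.4% of members, 11.3% of table genes and 7.15% of all promoters), CCGGAAG (8.70%, 13.3% and 8.86%), TGACGTC (4.35%, 4.24% and 3.21%) and AGATAA (0%, 5.34% and 11.2%). These are descriptions of letters and no test was made.

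**Figure D2:**
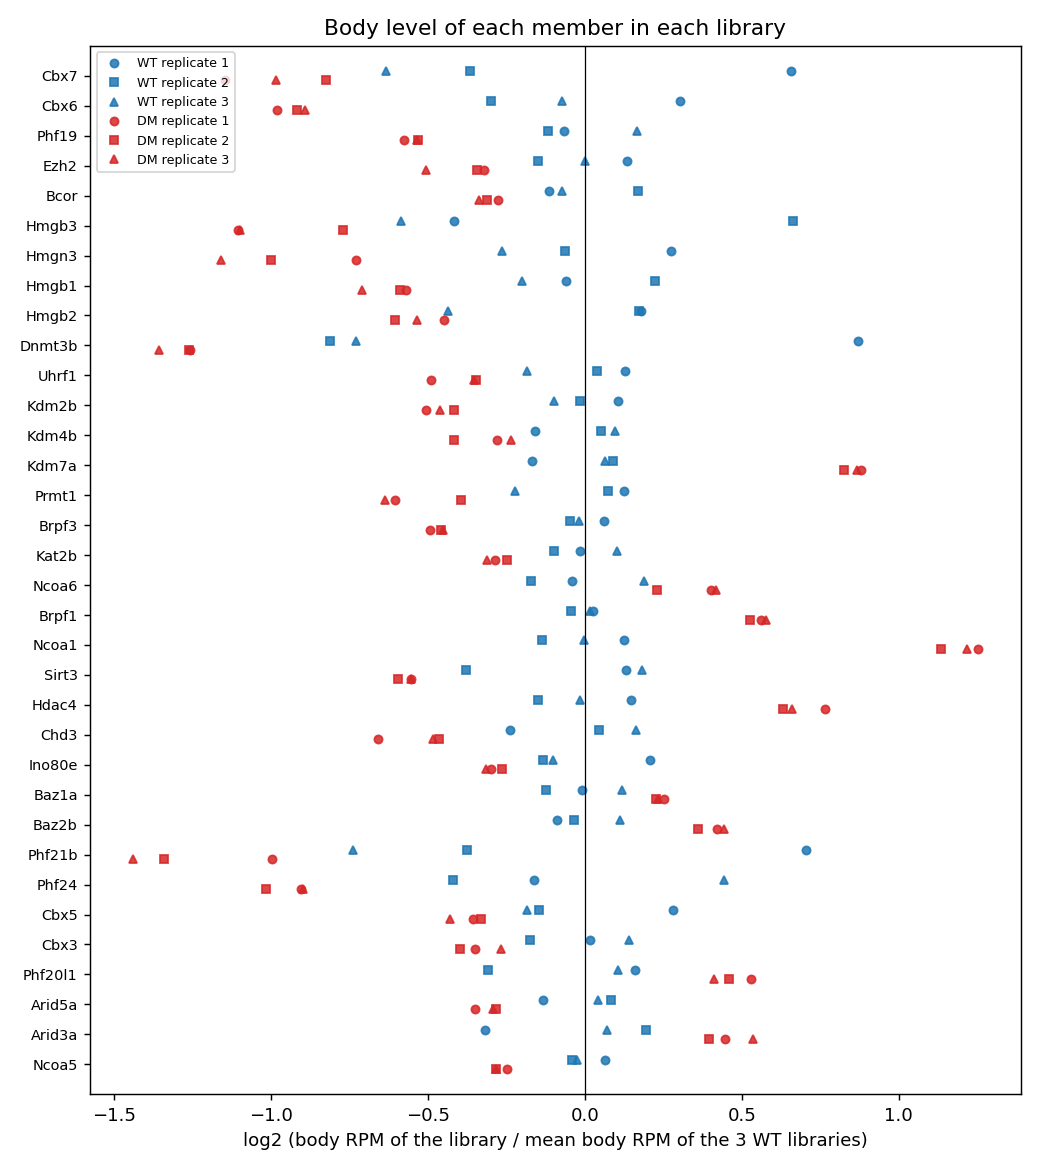
Body level of 34 chromatin genes in each library, as log2 of its RPM over the mean of the 3 WT libraries (blue WT, red DM; circle, square and triangle for replicates 1, 2 and 3). Red points lie left of all blue points in 25 genes and right of them in 9.

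Both members that act on DNA methylation fell. Dnmt3b (chr2:153649450-153687730), a de novo DNA methyltransferase, had 23.1, 7.21 and 7.65 RPM in WT against 5.3, 5.29 and 4.95 in DM. WT replicate 1 held 60.9% of the WT signal, and the other WT libraries lay within 3 RPM of the DM libraries, above all of them. Its fold change was -1.30 ± 0.43 with all libraries and -0.52 without WT replicate 1, where edgeR's adjusted p was 0.0152. The fitted head value of Dnmt3b was -0.35 ± 0.36 (edgeR adjusted p 0.517), and its head reads per 100 body reads were 9.96, 73.4 and 26.3 in WT against 48.8, 42.1 and 52.5 in DM. Uhrf1 (chr17:56303400-56323486), which brings the maintenance methyltransferase to newly copied DNA, had 45.4, 42.7 and 36.6 RPM in WT against 29.6, 32.7 and 32.6 in DM. Its groups were separate, the change was -0.39 ± 0.11, and edgeR's adjusted p was 0.0508 without DM replicate 1. RefSeq names 1 pseudogene of Dnmt3b.

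Histone demethylases went both ways. Kdm7a (chr6:39136623-39206789), a demethylase of repressive histone marks with a PHD finger, had 47.2, 56.4 and 55.5 RPM in WT against 97.6, 94.1 and 96.8 in DM. Its DM values were all above 94 RPM and its WT values all below 57, a 1.81-fold higher mean with a fold change of 0.86 ± 0.10. Kdm2b (chr5:122870665-122988533), a CpG-binding demethylase that also belongs to the BCOR complex, had 86.3, 79.5 and 75 RPM in WT against 56.6, 60.2 and 58.4 in DM and a change of -0.46 ± 0.10. Kdm4b (chr17:56326062-56402870), which removes methyl groups from a heterochromatin mark, had 95.3, 110.2 and 114 RPM in WT against 87.7, 79.7 and 90.4 in DM and a change of -0.31 ± 0.11, and its edgeR adjusted p was between 0.0511 and 0.0842 when any 1 DM replicate was left out. The ratio of Kdm7a to Kdm2b body RPKM, which no scaling of libraries can move, was 0.919, 1.2 and 1.24 in WT and 2.9, 2.63 and 2.79 in DM. Prmt1 (chr7:44975989-44986492), the main arginine methyltransferase that makes asymmetric marks, had 38.1, 36.8 and 29.98 RPM in WT against 23, 26.6 and 22.5 in DM and fell by 0.54 ± 0.13 on the log2 scale.

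Acetyltransferase genes and their coactivators held the member that rose most. Ncoa1 (chr12:4247362-4477182), the nuclear receptor coactivator SRC-1, had 34.3, 28.7 and 31.5 RPM in WT against 75.1, 69.2 and 73.2 in DM. The groups were far apart, with a 2.30-fold higher mean in DM, a fold change of 1.20 ± 0.10 and an edgeR adjusted p of 6.22e-05. Its head had 5.7, 15.7 and 7.12 RPM in WT against 13, 15.5 and 14.3 in DM. WT replicate 2 overlapped the DM libraries there, and the head change was 0.59 ± 0.34 with an edgeR adjusted p of 0.221; without that library it was 1.15 with an adjusted p of 0.000894. Ncoa6 (chr2:155390656-155473894), a coactivator found with histone methyltransferases, had 58, 53 and 68 RPM in WT against 78.9, 70.04 and 79.8 in DM and a change of 0.35 ± 0.12; edgeR's adjusted p was 0.178 with TMM and 0.0694 and 0.0721 without DM replicates 1 and 3. Kat2b (chr17:53566971-53672720), the acetyltransferase PCAF, had 88.1, 83.2 and 95.6 RPM in WT against 73.1, 74.9 and 71.7 in DM and a change of -0.28 ± 0.10, and lost its call without DM replicate 1 (edgeR adjusted p 0.0721) or 3 (0.0811). RefSeq names 1 pseudogene of Kat2b. Ncoa5 (chr2:165000357-165034867), which matched by its name only, had 56.1, 52.2 and 52.8 RPM in WT against 45.2, 44.2 and 44.2 in DM, a change of -0.27 ± 0.09, and edgeR adjusted p values of 0.0609, 0.0514 and 0.0703 without DM replicates 1, 2 and 3.

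The closely related scaffold subunits Brpf1 and Brpf3, which hold together acetyltransferase complexes of the MYST family, moved in opposite directions. Brpf1 (chr6:113307137-113324860) had 32.5, 31 and 32.3 RPM in WT against 47.1, 46 and 47.6 in DM, and Brpf3 (chr17:28801090-28839949) had 52.7, 49 and 49.9 RPM in WT against 35.9, 36.8 and 37 in DM. Both sets of libraries were tight and separate, and the changes were 0.55 ± 0.09 and -0.47 ± 0.09. Within each library the ratio of Brpf1 to Brpf3 body RPKM was 1.36, 1.4 and 1.43 in WT and 2.9, 2.77 and 2.85 in DM. The pairs given here were chosen after their values were seen.

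Among deacetylases, Hdac4 (chr1:91928779-92180341), a class IIa deacetylase that shuttles between nucleus and cytoplasm, had 160.5, 130.4 and 143 RPM in WT against 246, 224 and 229 in DM and rose by 0.69 ± 0.11 on the log2 scale. Sirt3 (chr7:140863666-140882309), a sirtuin that works in mitochondria and not on chromatin, had 90.2, 63.3 and 93.6 RPM in WT against 56.1, 54.6 and 56.1 in DM and a change of -0.57 ± 0.15. It overlaps Ric8a in the table. The head of Hdac4 held few reads, and per 100 body reads these were 2.74, 4.87 and 2.68 in WT against 2.26, 2.6 and 2.96 in DM.

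The remodeller subunits split evenly. Chd3 (chr11:69343273-69369406), an ATPase of the NuRD complex, which joins nucleosome remodelling with deacetylation, had 62.6, 76.2 and 82.7 RPM in WT against 46.8, 53.5 and 52.8 in DM and a body change of -0.53 ± 0.12. Its head had 3.13, 5.29 and 4.33 RPM in WT against 1.97, 2.32 and 1.75 in DM. Every DM head value was below every WT value, and edgeR gave -1.07 ± 0.29 with an adjusted p of 0.0214, the largest head change that passed among the members. Ino80e (chr7:126850960-126862377), a subunit of the INO80 remodeller, had 78.2, 61.9 and 63.2 RPM in WT against 55.1, 56.4 and 54.4 in DM and a change of -0.29 ± 0.11; edgeR's adjusted p exceeded 0.05 without each DM replicate, at most 0.0975, and was 0.0806 without WT replicate 1, where the fold change was -0.18. The gene overlaps Hirip3 and Doc2a. Baz2b (chr2:59899363-60209748), a bromodomain partner of ISWI ATPases and the longest member at 310.4 kb, had 221, 229.9 and 254 RPM in WT against 315, 302 and 320.3 in DM and a change of 0.41 ± 0.10. The ratio of Baz2b to Chd3 body RPKM was 0.295, 0.251 and 0.256 in WT and 0.56, 0.47 and 0.505 in DM. Baz1a (chr12:54892989-54986336), the ACF subunit of an ISWI remodeller, had 183, 169 and 199.6 RPM in WT against 219, 215 and 216 in DM and the smallest change of any member, 0.24 ± 0.10, which turned to -0.10 under DESeq2 scaling (DESeq2 adjusted p 0.226) and was 0.02 with TMM (edgeR adjusted p 0.743). Its edgeR adjusted p was also above 0.05 in 5 of the 6 fits that left out 1 library, up to 0.125 without DM replicate 1.

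Of the 5 members grouped as readers 4 fell. Cbx3 (chr6:51470360-51483704), a heterochromatin protein of the HP1 family, had 36.4, 32 and 39.7 RPM in WT against 28.3, 27.4 and 29.9 in DM and a change of -0.34 ± 0.11. Its relative Cbx5 (chr15:103191544-103239816) had 55.7, 41.4 and 40.3 RPM in WT against 35.8, 36.5 and 34 in DM and a change of -0.37 ± 0.14. The groups of both were separate. The edgeR adjusted p of Cbx3 was 0.0604 without DM replicate 1 and 0.0565 without DM replicate 2. That of Cbx5 was above 0.05 without each DM replicate, up to 0.0802, and 0.0626 without WT replicate 1, where its fold change was -0.21. RefSeq names 6 pseudogenes of Cbx3. Phf21b (chr15:84785381-84856049) and Phf24 (chr4:42917251-42944752) were weakly transcribed. Phf24 was placed in this group by its symbol, and a role on chromatin was not checked. Phf21b had 7.96, 3.77 and 2.93 RPM in WT against 2.45, 1.93 and 1.8 in DM, with 54.3% of the WT signal in WT replicate 1, and a change of -1.25 ± 0.41, or -0.68 without that library. Phf24 had 4.83, 4.04 and 7.34 RPM in WT against 2.89, 2.67 and 2.9 in DM and a change of -0.94 ± 0.31. For Phf21b edgeR's adjusted p was 0.0605 and 0.0645 without DM replicates 2 and 3, and for Phf24 it was 0.056, 0.055 and 0.0555 without DM replicates 1, 2 and 3.

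Phf20l1 (chr15:66577560-66647976), a Tudor domain reader of methylated lysines, had head and body values of opposite sign. Its body had 53.4, 38.6 and 51.5 RPM in WT against 69, 65.9 and 63.6 in DM, with every DM library above every WT library. Its head had 29.4, 48 and 30.7 RPM in WT against 24.2, 26.9 and 25.4 in DM, with every DM library below every WT library. The body change was 0.46 ± 0.13 (edgeR adjusted p 0.0102; 0.0622 with TMM) and the head change -0.50 ± 0.25 (adjusted p 0.169). Head reads per 100 body reads were 55, 124 and 59.6 in WT against 35, 40.8 and 39.97 in DM, and edgeR's interaction test of the head to body ratio gave -0.94 ± 0.32 with an adjusted p of 0.233. Without WT replicate 2 edgeR gave -0.24 for the head and -0.57 for the ratio (adjusted p 0.201 and 0.0625), and the ratio was -0.58 with TMM factors of each window.

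The ARID genes changed in opposite directions. Arid3a (chr10:79927043-79955018), a transcription factor with an ARID domain, had 62, 88.5 and 81.3 RPM in WT against 105, 102 and 112 in DM and a change of 0.46 ± 0.14, with an edgeR adjusted p of 0.129 under TMM. Arid5a (chr1:36307733-36324029), an ARID protein also known for binding cytokine messenger RNA, had 38.9, 45.1 and 43.9 RPM in WT against 33.5, 35.1 and 34.8 in DM and a change of -0.31 ± 0.10; edgeR's adjusted p was 0.0679 and 0.0555 without DM replicates 1 and 3. The ratio of Arid3a to Arid5a body RPKM was 0.922, 1.13 and 1.07 in WT and 1.82, 1.67 and 1.86 in DM. Arid5a was the only member with more head than body reads in all 6 libraries. Per 100 body reads its head reads were 122.6, 183 and 125 in WT against 128, 124 and 128 in DM.

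**Figure D3:**
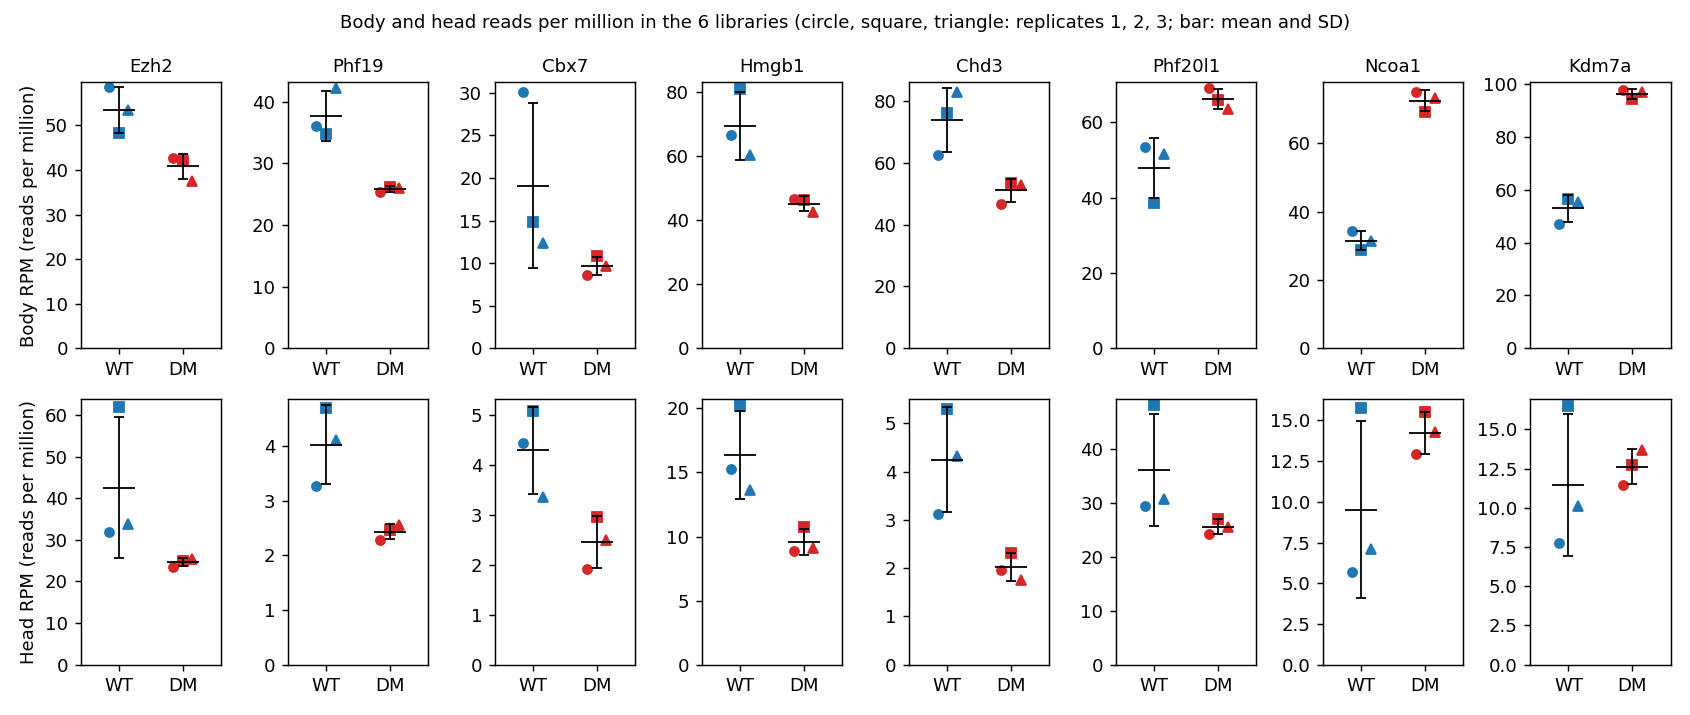
Body (upper panels) and head (lower panels) RPM of 8 chromatin genes in each library (circle, square and triangle for replicates 1, 2 and 3; bars mean and SD, n = 3 per group). Ezh2, Phf19, Cbx7, Hmgb1 and Chd3 are lower in DM in both windows, Phf20l1 is higher in the body and lower in the head, and WT replicate 2 has the highest head value of Ncoa1.

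Across the set, the head window gave few calls. Heads of 33 members could be tested, and those of Phf21b and Phf24 were among the ones too low. Only Chd3 and Hmgb1 passed edgeR's adjusted p of 0.05, both lower (2 of 33), where 20.3% of 2579 genes passed, 9.62% higher and 10.7% lower. The median head change was -0.42 for the members and -0.11 for all genes tested. The DM heads lay wholly below the WT heads in 14 of the 36 members and wholly above in 0, where 23.3% and 17.7% of all genes did. This count of calls depended on single libraries and on the scaling. With TMM, 12 members were lower and 1 higher in the head (18.9% and 19.2% of all genes). Without WT replicate 1, 14 were lower and 0 higher (22.6% and 9.97%), and without WT replicate 2, 4 were lower and 1 higher (13.9% and 22.1%). Without WT replicate 3 neither Chd3 nor Hmgb1 passed in edgeR. Without DM replicate 1, 2 or 3 no member passed in edgeR, where 0.532%, 7.82% and 4.16% of all genes passed. In those fits 3, 9 and 4 of 36 members had an unadjusted edgeR p under 0.05. Among all genes these were 661 of 2633, 795 of 2646 and 642 of 2645. Over the 6 fits that left out 1 library edgeR's adjusted p of the Chd3 head ran from 0.00329 to 0.125 and that of Hmgb1 from 0.0166 to 0.223.

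Head and body changes had the same sign in 27 of 33 members (81.8%) and in 79.6% of 2577 genes. All 23 members that were lower in the body and tested in the head had a negative head change, as did 96.6% of such genes in the table. Of the 10 members higher in the body, 6 had a negative head change, Baz2b, Phf20l1, Ncoa6, Arid3a and Baz1a among them, where 32.1% of all genes higher in the body did. Without WT replicate 2 this was 1 of 10 members against 11.5% of such genes, and with TMM 3 of 10 against 21.9%. The Spearman correlation of head and body change was 0.72 over the 33 members and 0.87 over all genes; the points share the same 6 libraries, and genes are not independent replicates.

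**Figure D4:**
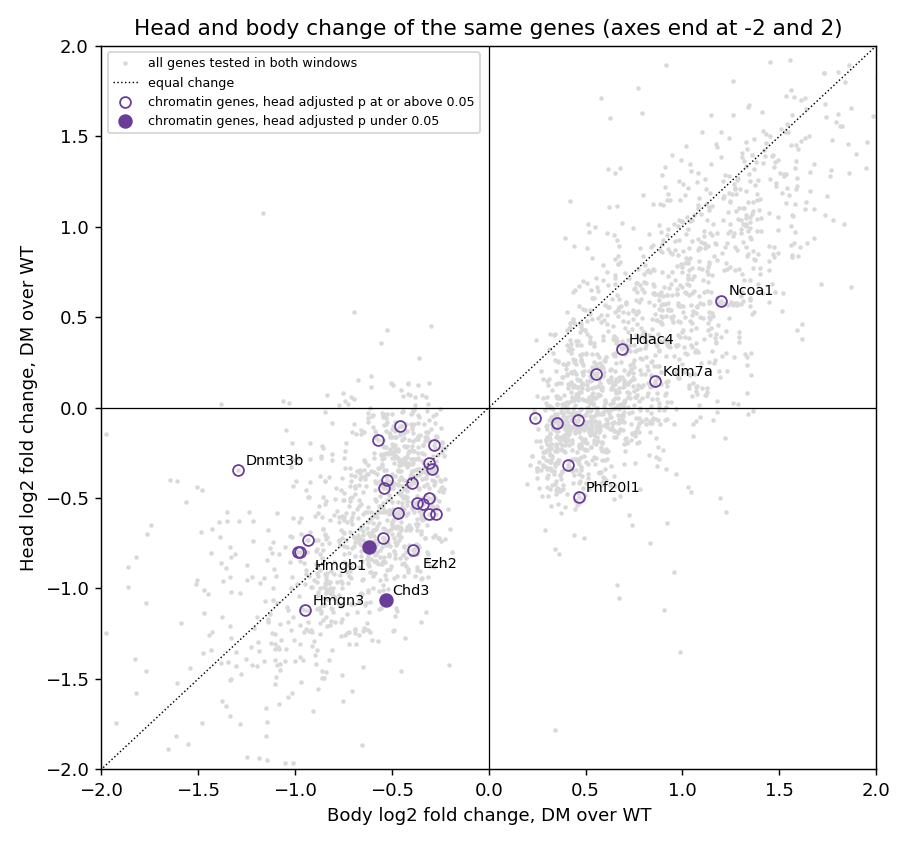
Head change against body change (both log2 fold change, DM over WT, edgeR) for the chromatin genes named in the text that were tested in the head (purple circles, filled where the head passed an adjusted p of 0.05) and all genes tested in both windows (grey), with a dotted line of equal change. The filled circles are Chd3 and Hmgb1, and Phf20l1 lies at 0.46 in the body and -0.50 in the head.

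The head to body ratio compares where polymerase sits along a gene. No member passed edgeR's interaction test at an adjusted p of 0.05 (0 of 33), where 0.0776% of 2577 genes passed. An unadjusted p under 0.05 in the same test was found for 2 of 33 members and for 395 of 2577 genes. Without WT replicate 2 only Dnmt3b passed as higher (0.919% of all genes). In the 10 members higher in the body the ratio was lower in DM in 10 of 10, with a median of -0.47, where 88.4% of all such genes were lower, with a median of -0.44. Without WT replicate 2 it was lower in 8 of 10, with a median of -0.14 (-0.22 for all such genes). With TMM factors of each window it was lower in 7 of 10, with a median of -0.11 (-0.08 for all such genes). In members lower in the body it was lower in 13 and higher in 10, with a median of -0.076, where all such genes had -0.010. That median was 0.047 without WT replicate 2 (0.19 for all such genes) and 0.27 with TMM (0.35).

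The members that rose were longer on the whole than those that fell. The 10 higher members had a median length of 88.3 kb (17.7 to 310 kb) and the 26 lower members one of 26.8 kb (4.09 to 158 kb); for all genes of the table these were 39.8 and 27.8 kb. Of the 22 members under 50 kb, 20 were lower, 10 of 11 under 20 kb and 10 of 11 from 20 to 50 kb. Of the 14 longer members 6 were lower, 3 of 7 from 50 to 100 kb and 3 of 7 above 100 kb. In the whole table the lower shares of the same 4 bins were 50.4%, 44.3%, 33.5% and 37.4%. The Spearman correlation of length with body change was 0.43 over the 36 members and 0.0255 over all genes, as a description of points that share the same libraries. Baz2b, Hdac4 (252 kb) and Ncoa1 (229.8 kb) were among the longest of the higher members, and the short Brpf1 (17.7 kb) rose as well.

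**Figure D5:**
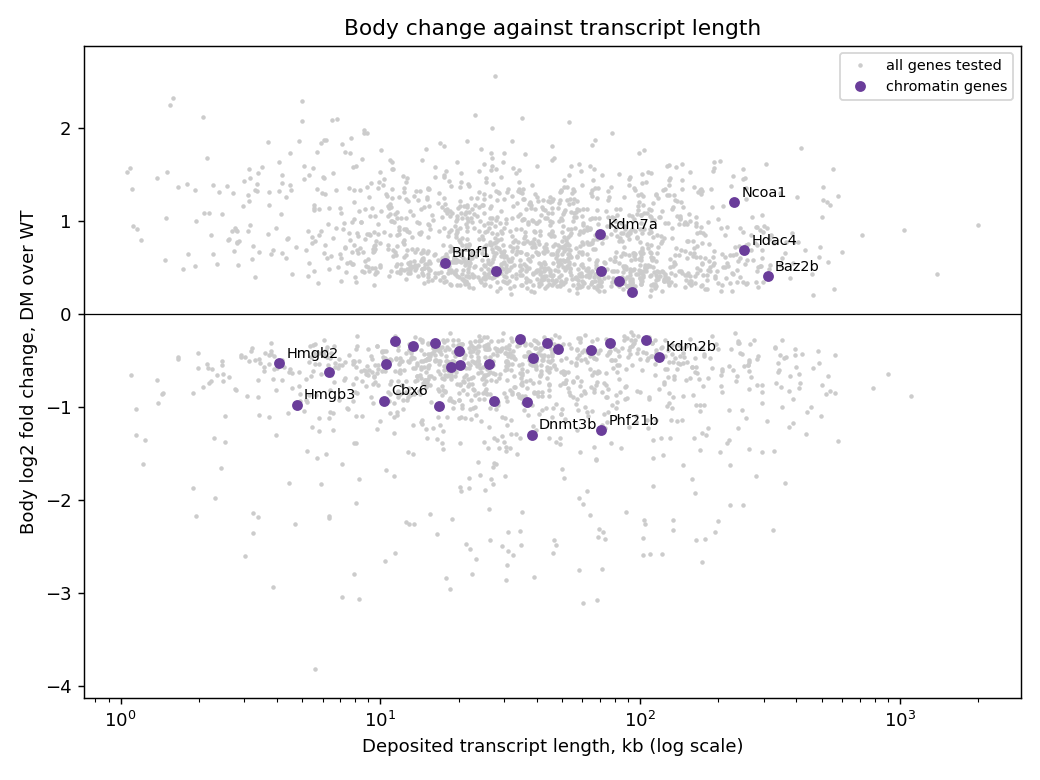
Body log2 fold change (DM over WT, edgeR) against deposited transcript length in kb on a log axis, for 34 chromatin genes (purple) and all genes tested (grey). Baz2b, Hdac4 and Ncoa1 lie at the long end above 0, and Hmgb2 and Hmgb3 at the short end below 0.

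Other subunits of chromatin complexes, whose symbols the name rule does not match, were read from a list of 143 genes. Of these 22 were in the table, 16 lower and 6 higher by edgeR's adjusted p, with a median body change of -0.39, where 42.1% of all genes were lower and 57.4% higher. Mllt3 itself (-0.49) is counted among the 22 and among the lower genes, also with TMM, although both groups were treated to delete the endogenous gene. With TMM 16 were lower and 3 higher, against 42.5% and 41.9% of all genes. In the Polycomb list Pcgf2 (-0.83), Pcgf6 (-0.69) and Epop (-1.98) were lower and Phc2 (0.41) and Aebp2 (0.32) higher. The libraries of Epop, a factor of the EZH2 complex, overlapped between groups. Rcor2, a corepressor subunit of CoREST, changed by -1.38 and Mta1 of the NuRD complex, to which CHD3 belongs, by -0.27. Bcl7a and Bcl7c of the BAF remodeller changed by -0.89 and -0.37, and the ATPases Ruvbl1 and Ruvbl2, shared by INO80 and related remodellers, by -0.45 and -0.32. Psip1 and Dpy30, which work with MLL-type methyltransferases, changed by -0.70 and -0.51. The elongation factors Ell2 (0.76), Aff1 (0.46) and Ell (0.26) were higher, and Mllt1 (-0.24) lower. Ash1l (0.31), a histone methyltransferase, was higher, and Jmjd6 (-0.42), Taf5l (-0.35) and Chaf1b (-0.41), a subunit of a replication-coupled histone chaperone, were lower. With TMM the adjusted p of Ell, Aebp2 and Ash1l in edgeR was 0.552, 0.220 and 0.287. Without WT replicate 1 the changes were -0.46 for Pcgf2 and for Pcgf6, -1.15 for Epop, -1.07 for Rcor2 and -0.50 for Psip1. In that fit Dpy30 (-0.29) and Mllt1 (-0.24) had edgeR adjusted p values of 0.0554 and 0.0598. Other genes such as Chaf1b (-0.44) and Aff1 (0.47) changed slightly more without that library. Without DM replicate 1, 8 of these genes were lower by the same test (27.8% of all genes), and without DM replicate 3, 10 (26.0%).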

How the data were processed

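Raw read counts of head and body windows were deposited by the authors for each transcript and library, with a library total whose way of counting is not stated. The RPKM that the authors deposited could be recomputed from these without a difference above rounding. Log2 fold changes with standard errors, p-values and a mean signal (body counts over size factors) were deposited by the authors for the body comparison. The submitters' processing notes name the builds mm10 and dm3 and the tools cutadapt, Trimmomatic, Bowtie 1.1.2, MACS2 and bedtools 2.28, without roles; annotation, strand and multiple mapping are not given in the sources used here.

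The table holds 3022 rows of 2744 genes, all with a deposited adjusted p under 0.05 (largest 0.0498) out of about 13629 rows tested; each gene is represented by its transcript with most body reads on average. Counts were tested with edgeR 4.0.16 (limma 3.58.1, R 4.3.3), quasi-likelihood, after filterByExpr, with the deposited library totals as library sizes, because scaling on selected rows centres them against each other. The ratio test was the interaction of window and group with library as a block. P-values were adjusted by Benjamini-Hochberg over all genes tested. Alternatives were TMM, the authors' size factors, DESeq2 1.42.0, other filters, a threshold of 0.01, a replicate block and leaving out each library. The test was checked on simulated counts with the same dispersion in both groups, so the check does not cover WT libraries more uneven than DM. Replicate libraries differed by more than sampling noise, and by more within WT than within DM. Chi-square per degree of freedom was 25.6 to 40.4 between WT libraries and 2.67 to 6.87 between DM libraries. All 6 were kept.

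The members and lists were chosen with earlier results of these data known. Genes were named by role and size of body change (up to 3 per role, with a mean of at least 50 counts), by level and by unevenness among WT libraries; the remaining members were added for completeness. Single values of 2 members are not reported here; counts and medians over the members include them. Roles were assigned from general knowledge of the proteins.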

Additional observations from a re-analysis of the deposited data

How the results depend on the processing

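Of 432 body values of single members under 12 alternative fits, 372 kept their direction and their side of the threshold, 59 kept the direction and lost the call (48 of them with 1 library left out) and 1 reversed, Baz1a at -0.10 under DESeq2. The median body change of the members was -0.59 with TMM and -0.71 with DESeq2. Members higher in the body numbered 5 with TMM, 4 with DESeq2 and 6 at an adjusted p under 0.01 (8 to 10 with 1 library left out), and members lower numbered 9 at 0.01 and 13 to 26 with 1 library left out. Of all 2721 genes 863 were higher and 1158 lower with DESeq2. With 1 library left out, 1307 to 1555 of the 2721 to 2739 genes tested were higher and 711 to 1129 lower. Shares of all genes at 0.01 are not given, so counts at 0.01, here and below, have no background beside them. Member heads called lower numbered 12 with TMM, 9 with DESeq2, 1 each with the authors' size factors, without a filter and with a mean of at least 50 counts, 0 at 0.01, and 0 to 14 with 1 library left out; heads called higher numbered 1 with TMM and 1 with DESeq2, and 0 to 1 with 1 library left out, as did ratios called higher. Over all genes, heads called lower numbered 465 of 2579 with DESeq2 and 239 of 2579 with the authors' size factors. They numbered 272 of 2744 without a filter and 169 of 1997 with a mean of at least 50 counts. Heads called higher numbered 465 with DESeq2. Partner genes called higher numbered 3 with TMM, 1 with DESeq2 and 4 to 6 with 1 library left out, and those called lower 6 at 0.01 and 8 to 16 with 1 library left out. The median ratio change of members lower in the body was -0.21 without WT replicate 1 and 0.047 without WT replicate 2. It was not computed for the other fits that left out 1 library. The fit without WT replicate 2 was chosen after seeing that its heads stand above the other libraries. With TMM factors of each window the median was 0.27. The cause of these shifts was not tested. Other library scalings of the ratio test were not run, because the library block absorbs them.

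The labels do not say whether same-numbered libraries were paired. Correlations of same-numbered deviations were -0.09, -0.18 and 0.37 in the body and 0.09, -0.05 and 0.02 in the head. They are too few and too uneven to settle it. With a replicate block 9 members were higher and 26 lower in the body, 1 higher and 6 lower in the head, and 0 in the ratio. Over all genes 1542 were higher and 1093 lower of 2721 bodies, 375 higher and 421 lower of 2579 heads, and 38 of 2577 ratios passed. At this depth the heads of 33 of 36 members passed the filter on low counts.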

Other observations

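A second transcript of 5 members was also in the table, and its deposited body change had the same sign as that of the row used: in the authors' deposited table the values were 0.25 and 0.21 for Baz1a, 0.41 and 0.38 for Baz2b, -0.49 and -0.49 for Brpf3, -0.44 and -0.49 for Kdm2b and -0.43 and -0.57 for Phf19 (second transcript first). Each second transcript lies within the first and shares its body reads, so these are not separate measurements. For Kdm2b and Phf19 the second transcript starts inside the gene, and its head held more reads than that of the longer one: 117, 183 and 199 against 74, 78 and 96 in WT for Kdm2b, and 180, 110 and 212 against 75, 71 and 94 for Phf19. In DM the shorter Phf19 start had 96, 110 and 111 head reads and the shorter Kdm2b start 165, 158 and 151.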
